A study of Homo sapiens with 6 samples.

Results

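The solute carriers (SLC) outside the mitochondrial SLC25 family were examined in TE-1 cells, a human esophageal squamous cell carcinoma (ESCC) line. Members were chosen by gene name alone: a symbol made of SLC, a family number, the letter A and a member number, without SLC25 and without SLC29A1, SLC29A2 and SLC7A11. This rule took 138 of the 12180 genes listed, from 41 families, of which 12 had a single listed member. It left out 38 SLC25 genes, the 3 genes named above and 27 SLC symbols with another letter or a suffix, 19 of them in the SLC35 family. RNA was measured in 3 control libraries (NC) and 3 libraries of cells overexpressing FGL1 (FGL1-OE). Both groups were TE-1 cells. FGL1-OE cells received an FGL1 lentivirus and NC cells, by the study's methods, a vector with a nonsense sequence, and stable lines were made by puromycin selection. The sample labels call the control genotype WT. No source used here says that the 3 libraries of a group came from separate cultures or clones, so p-values measure only the spread between these libraries, which may be technical. Levels are FPKM, which corrects for transcript length and sequencing depth.

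Solute carriers are membrane proteins that move amino acids, sugars, ions, metals, nucleotides, vitamins and other small molecules across the plasma membrane and the membranes of organelles. Family numbers follow sequence similarity, and most families share a type of substrate. Some carriers work as pairs: SLC3A2 is the heavy chain that brings light chains such as SLC7A5 and SLC7A7 to the cell surface. Squamous carcinomas are known for high uptake of glucose and of essential amino acids.

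FGL1 itself checked the labels. It was measured at 0.0202, 0 and 0.106 FPKM in NC 1, NC 2 and NC 3 and at 33.5, 39.3 and 39.9 FPKM in FGL1-OE 1, FGL1-OE 2 and FGL1-OE 3 (log2 difference 5.21, SE 0.15, adjusted p = 1.29e-05, limma). Of 9 squamous epithelial markers, 6 were listed, with a summed level of 133 to 186 FPKM in NC and 211 to 227 FPKM in FGL1-OE; SOX2, KRT14 and PKP1 were not in the list. Of the immune markers 2 of 4 were listed and of the fibroblast markers 1 of 4, while no endothelial, neural or liver marker was. The immune markers summed to 2.38 to 6.02 FPKM in NC and 3.85 to 5.53 FPKM in FGL1-OE, and the fibroblast marker lay at 1.42 to 5.55 and 2.23 to 3.42 FPKM. TP63 lay at only 0.299 to 0.779 FPKM and was not tested. Most of the squamous sum was KRT6A, at 160.3, 108 and 139 FPKM in NC and 197, 183 and 192 FPKM in FGL1-OE, while TP63, KRT5, KRT17, DSG3 and DSC3 overlapped between the groups. The part of the KRT6A difference in the comparisons below was not tested. In bulk RNA, fewer cells of a type and less RNA per cell cannot be told apart.

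The control libraries differed from each other more than the FGL1-OE libraries did, and this spread followed base composition. NC 1 and NC 2 were the least alike pair of the 6 libraries over all genes tested (Pearson's r 0.885 on log2(FPKM + 1)), and pairs of FGL1-OE libraries reached 0.981 to 0.986. The standard deviation on the log2 scale was larger in NC than in FGL1-OE in 116 of the 138 members (84.1%, the same share as over all genes), with a median of 0.29 in NC and 0.12 in FGL1-OE. NC 3 lay between NC 1 and NC 2 for 99 members (71.7%, against 70.0% of all genes). For 71 members (51.4%, against 57.0% of all genes) all FGL1-OE libraries lay inside the range of the NC libraries.

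The members stood at both ends of this spread. GC content is that of the longest coding transcript of each gene, which need not be the most abundant one. NC 2 was above NC 1 in 43 of the 46 members with the lowest GC content (35% to 45%), with a median log2 difference of 0.73. In the 46 members of middle GC content (45.2% to 57.6%) it was above in 23, with a median of 0.0028. In the 46 with the highest GC content (57.9% to 69.0%) it was above in 3, with a median of -0.39. Across the 138 members Spearman's rho between the GC content of the transcript and the NC 2 minus NC 1 difference was -0.81, and across 11899 genes it was -0.78. These are descriptions across genes measured in the same pair of libraries. The difference between the group means followed GC content less, with rho -0.22 over the members and -0.32 over all genes with a GC value.

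The sequences of 4 members show the 2 ends of that range. They are the 2 genes with the largest positive and the 2 with the largest negative NC 2 minus NC 1 difference among the genes picked by the naming rule, shown after their values were seen. Members outside that rule had larger positive differences. SLC30A9 (39.1% GC) had the largest of all members (1.59), followed by SLC23A2, of middle GC content (48.9%), with 1.53. SLC38A2 had 1.48 and SLC38A1 1.32, and SLC35A1 (1.43), SLC30A7 (1.42) and SLC7A6 (1.33) lay between them. Each stretch is the central 120 coding bases of the longest coding exon of the longest coding transcript in GENCODE release 29, 5′ to 3′ on the gene's strand, with G and C in capitals, and coordinates are on GRCh38. The SLC38A2 stretch lies in exon 10 at chr12:46364413-46364532 (minus strand), the SLC38A1 stretch in exon 15 at chr12:46197930-46198049 (minus strand), the SLC4A2 stretch in exon 17 at chr7:151074107-151074226 (plus strand) and the SLC22A31 stretch in exon 10 at chr16:89196094-89196213 (minus strand).
SLC38A2: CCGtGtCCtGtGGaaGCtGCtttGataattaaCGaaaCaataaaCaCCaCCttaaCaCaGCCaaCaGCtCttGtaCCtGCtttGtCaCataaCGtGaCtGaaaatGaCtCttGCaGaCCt
SLC38A1: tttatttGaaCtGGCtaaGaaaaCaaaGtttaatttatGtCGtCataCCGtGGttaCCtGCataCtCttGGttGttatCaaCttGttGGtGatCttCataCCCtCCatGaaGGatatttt
SLC4A2: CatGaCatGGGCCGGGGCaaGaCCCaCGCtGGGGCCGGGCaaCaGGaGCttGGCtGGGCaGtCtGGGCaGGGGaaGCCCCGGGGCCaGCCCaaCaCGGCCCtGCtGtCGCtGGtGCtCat
SLC22A31: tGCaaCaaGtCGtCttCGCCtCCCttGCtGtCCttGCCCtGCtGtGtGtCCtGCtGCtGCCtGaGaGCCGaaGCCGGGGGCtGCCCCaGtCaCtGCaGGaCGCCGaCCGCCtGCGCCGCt
The stretches of SLC38A2 and SLC38A1 held 43.3% and 35% G and C, and those of SLC4A2 and SLC22A31 held 70.8% and 67.5%. SLC38A2 (38.1% GC over its transcript), which imports neutral amino acids with sodium, measured 20.3, 58.2 and 31.3 FPKM in NC 1, NC 2 and NC 3 and 32.1, 39.8 and 40.4 FPKM in the FGL1-OE libraries. SLC4A2 (61.3% GC), which exchanges chloride for bicarbonate, measured 36, 11.4 and 21.9 FPKM in NC and 17.5, 14.5 and 16.4 FPKM in FGL1-OE. For both genes NC 1 and NC 2 were the extremes and every FGL1-OE library lay between them.

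**Figure D1:**
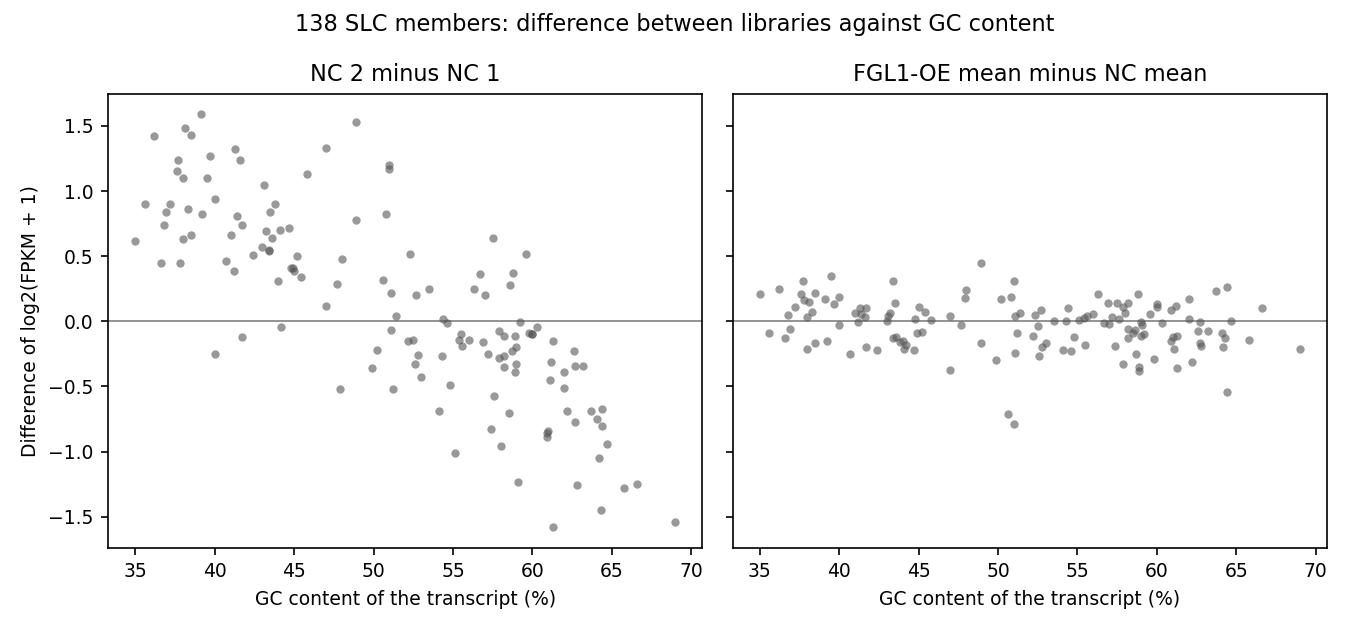
Each point is 1 of the 138 SLC members, with the GC content of its transcript (%) on the x axis and a difference of log2(FPKM + 1) on the y axis, NC 2 minus NC 1 at left and the FGL1-OE mean minus the NC mean at right. The differences between the control libraries fall from above 0 to below 0 as GC content rises (rho -0.81), and those between the groups are smaller (rho -0.22).

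The members together summed to 1350.0 to 1492 FPKM per library, which was 0.631% to 0.708% of the listed FPKM. The highest 10 members held 48.4% to 53.1% of that sum. By mean over the 6 libraries, 3 members were at or over 100 FPKM, 27 from 10 to 100, 93 from 1 to 10 and 15 under 1. No member was at 0 in any library. A gene entered the deposited table when the mean of 1 group or both reached 0.5 FPKM, and SLC1A1, SLC17A7, SLC29A4 and SLC30A2 did so in only 1 of them.

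SLC7A5, the light chain of the large neutral amino acid exchanger, had the highest level. It measured 185, 135 and 154 FPKM in NC and 144, 129 and 134 FPKM in FGL1-OE, so 2 NC libraries were above every FGL1-OE library and NC 2 was not. SLC39A1, a zinc importer of the cell surface, followed with 136, 114 and 116 FPKM in NC and 128, 118 and 127 FPKM in FGL1-OE. SLC1A5, which takes up glutamine and other neutral amino acids, measured 116, 105 and 111 FPKM in NC and 113, 95.2 and 100.4 FPKM in FGL1-OE. SLC39A1 was above SLC1A5 in each library, while their ranges across libraries overlapped. SLC39A7, which releases zinc from the secretory pathway, ranged from 62.6 FPKM in NC 2 to 127 FPKM in NC 1, with 92.2 to 96.5 FPKM in FGL1-OE. The next members, SLC16A1, SLC3A2 and SLC2A1, had means of 52.9, 51.9 and 48.4 FPKM and overlapped each other. SLC38A2, SLC38A1 and SLC7A1 closed the highest 10 with means of 37, 31.2 and 29.1 FPKM.

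**Figure D2:**
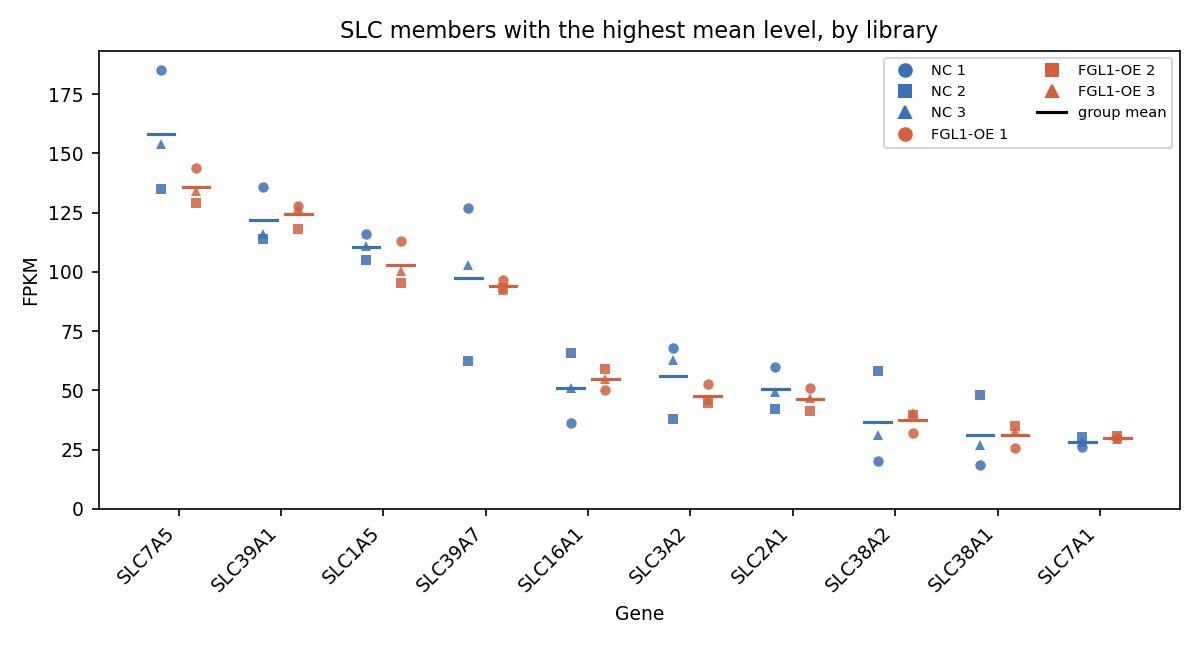
FPKM of the 10 members with the highest mean level (y axis), by gene (x axis), with 1 point per library, NC in blue and FGL1-OE in orange, and a line at each group mean. NC 1 and NC 2 are the extremes for 6 of these genes (SLC39A1, SLC39A7, SLC16A1, SLC3A2, SLC38A2 and SLC38A1), and SLC7A5 reaches 185 FPKM in NC 1.

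The comparison of FGL1-OE with NC asked which carriers differed in RNA level when FGL1 was overexpressed. No member passed an adjusted p of 0.05 (limma on log2(FPKM + 1), Benjamini-Hochberg over 12017 genes; 1 gene passed, FGL1, 0.00832%), and the lowest adjusted p of a member was 1.0. At an unadjusted p under 0.05, 0 members were higher (background 1.21%) and 3 of 138 (2.17%) were lower (background 0.807%). In 2 members (1.45%) all FGL1-OE libraries were above all NC libraries, against 4.09% of all genes, and in 12 members (8.7%) all were below, against 3.06%. Among those 12, SLC1A1, SLC17A7 and SLC30A2 were listed through the NC group alone, so their direction was partly set by the listing. The median log2 difference was -0.0053 over the members, with 65 above 0 and 73 below, and 0.016 over all genes. The median SE was 0.2, larger than the median size of the differences of 0.13.

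The 3 members with an unadjusted p under 0.05 were SLC7A7, SLC22A17 and SLC45A3. SLC7A7 is the light chain through which cells release cationic amino acids in exchange for neutral ones. It lies on chromosome 14 (chr14:23242431-23299029 on GRCh37) and measured 6.88, 8.81 and 6.63 FPKM in NC and 4.09, 3.61 and 4.75 FPKM in FGL1-OE. Each FGL1-OE library was below each NC library (log2 difference -0.71, SE 0.17, unadjusted p = 0.00347, adjusted p = 1.0, limma). SLC22A17, described as a receptor for the iron-binding protein lipocalin-2 (chr14:23815515-23822121), measured 3.27, 1.45 and 2.04 FPKM in NC and 1.26, 1.17 and 1.12 FPKM in FGL1-OE. Its lowest control, NC 2, was close to the FGL1-OE libraries (log2 difference -0.54, SE 0.22, unadjusted p = 0.0379, adjusted p = 1.0, limma). SLC45A3, a sugar carrier best known from prostate (chr1:205626979-205649587), measured 2.79, 2.5 and 2.43 FPKM in NC and 2.1, 1.34 and 1.86 FPKM in FGL1-OE. The gap between its groups was from 2.43 to 2.1 FPKM (log2 difference -0.38, SE 0.16, unadjusted p = 0.0486, adjusted p = 1.0, limma). For all 3 the exact two-sided permutation test gave p = 0.1, the smallest that 3 against 3 libraries allow.

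The other 9 members that were lower without overlap had smaller differences, from -0.35 to -0.18 on the log2 scale. SLC30A2, which loads zinc into vesicles, measured 0.93, 0.474 and 0.693 FPKM in NC and 0.419, 0.312 and 0.261 FPKM in FGL1-OE. SLC17A7, the vesicular glutamate transporter of neurons, measured 0.864, 0.769 and 0.544 FPKM in NC and 0.401, 0.268 and 0.449 FPKM in FGL1-OE. Both were near the limit of the list, and with SLC1A1 they were listed through the NC group alone, so their direction was partly set by the listing. SLC39A11, a zinc transporter, measured 9.55, 7.22 and 6.6 FPKM in NC and 5.35, 6.47 and 6.39 FPKM in FGL1-OE. SLC52A3, a riboflavin importer, measured 4.43, 4.11 and 4.48 FPKM in NC and 3.85, 3.07 and 3.25 FPKM in FGL1-OE. SLC29A3, the equilibrative nucleoside transporter of lysosomes, measured 20.5, 17.3 and 18.2 FPKM in NC and 15.8, 15.1 and 15.5 FPKM in FGL1-OE. SLC29A3 was the most abundant of the 12, with a mean of 17 FPKM, and its 3 FGL1-OE values stood closer together than its NC values. The remaining 4, named after their values were seen, were the sugar transporters SLC2A10 (log2 difference -0.24) and SLC2A11 (-0.18), the magnesium transporter SLC41A1 (-0.2) and the glutamate transporter SLC1A1 (-0.18).

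The 2 members that were higher without overlap were SLC31A2 and SLC22A4. SLC31A2, a copper transporter of intracellular membranes, measured 5.24, 7.69 and 7.13 FPKM in NC and 8.02, 8.07 and 7.81 FPKM in FGL1-OE. The step from NC 2 to the lowest FGL1-OE library was 7.69 to 7.81 FPKM (log2 difference 0.24, SE 0.17, unadjusted p = 0.202, limma). SLC22A4, a carrier of organic cations and of ergothioneine, measured 0.888, 0.621 and 0.993 FPKM in NC and 1.12, 1.0 and 1.04 FPKM in FGL1-OE. NC 3 and FGL1-OE 2 were nearly equal (log2 difference 0.17, SE 0.15, unadjusted p = 0.288, limma).

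**Figure D3:**
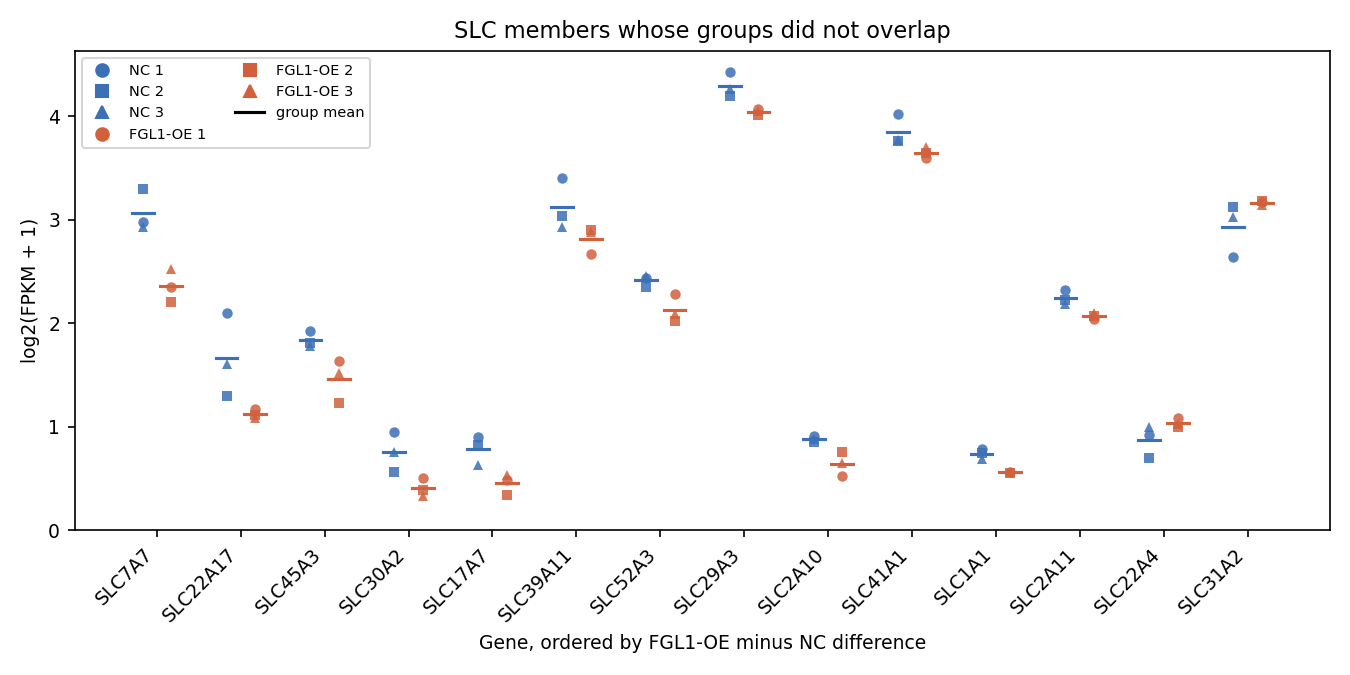
log2(FPKM + 1) of the 14 members whose NC and FGL1-OE libraries did not overlap (y axis), ordered by the difference between groups (x axis), with 1 point per library, NC in blue and FGL1-OE in orange, and a line at each group mean. In 12 members the FGL1-OE points lie below the NC points and in SLC22A4 and SLC31A2 above.

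These counts depended on NC 2. Without it, 14 members were higher and 15 lower at an unadjusted p under 0.05 (10.1% and 10.9%, against 11.2% and 10.6% of all genes), the 3 members above among the lower ones, and the lowest adjusted p was 0.194 (limma). Without overlap, 28 members (20.3%) were then higher and 30 (21.7%) lower, against 21.6% and 21.2% of all genes. The 14 higher ones had a GC content of 35% to 48.9% and the 15 lower ones 50.6% to 65.8%, and rho between GC content and the group difference was -0.63 over the members and -0.66 over all genes. The part of base composition in the differences without NC 2 was not tested. The 12 members lower in the full set spanned 44.2% to 64.4% in GC content, with a median of 56.7%. Without NC 2, the log2 difference was -0.6 (SE 0.14) for SLC7A7, -0.73 (SE 0.17) for SLC22A17 and -0.39 (SE 0.16) for SLC45A3. That of SLC22A17 was -0.33 without NC 1.

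The families were grouped by number into 9 classes of substrate, so a single member may carry something other than its class name says. None of the class medians was farther from 0 than 0.086 on the log2 scale. The median was lowest for phosphate and vesicular carriers (-0.086, 5 members; 0.026 without NC 1) and for carriers of vitamins, nucleosides, choline and fatty acids (-0.082, 17 members). It was highest for carriers of nucleotide sugars, acetyl-CoA and sugar phosphates in the secretory pathway (0.083, 10 members). These values are descriptions, given beside the median of 0.016 over all genes.

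**Figure D4:**
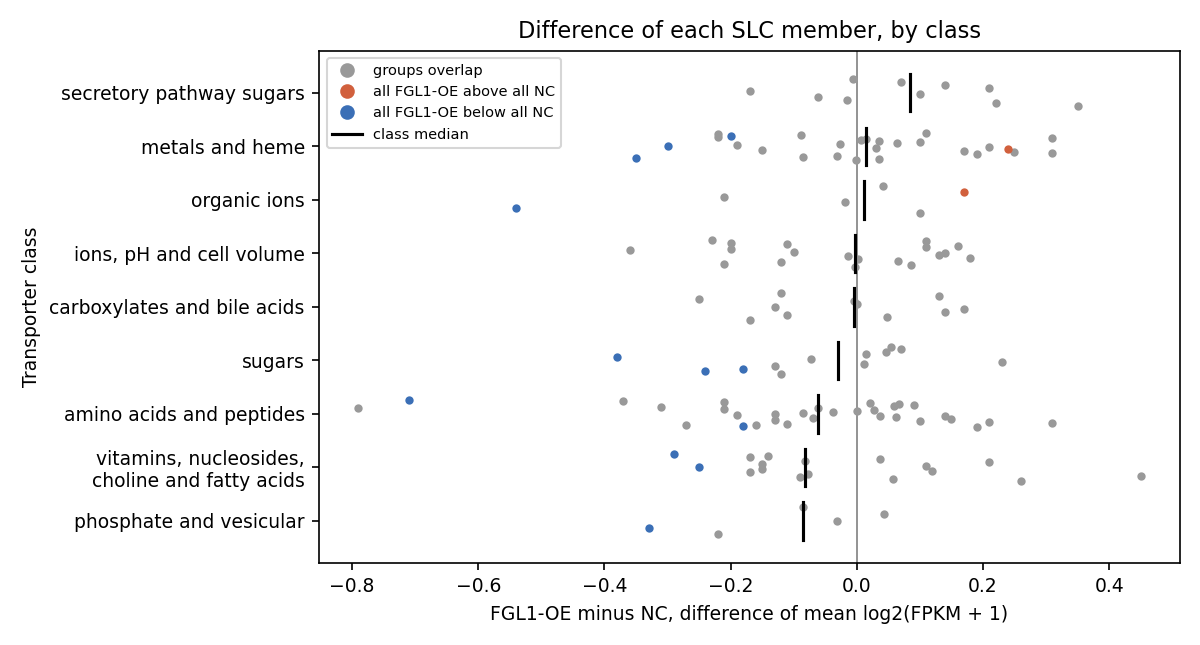
FGL1-OE minus NC difference of mean log2(FPKM + 1) of each of the 138 members (x axis) by class of substrate (y axis), with a black line at each class median. Members whose groups did not overlap are in blue (12 lower) or orange (2 higher), and class medians lie between -0.086 and 0.083.

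Amino acid and peptide carriers were the largest class, with 31 members in families 1, 3, 6, 7, 15, 36, 38 and 43. Of these 13 were higher and 18 lower in mean, with a median of -0.061, and SLC7A7 and SLC1A1 did not overlap. SLC3A2 measured 68.0, 37.8 and 62.7 FPKM in NC and 52.6, 44.7 and 45.8 FPKM in FGL1-OE (log2 difference -0.19, SE 0.24). The ratio of SLC7A5 to SLC3A2 was 2.72, 3.58 and 2.45 in NC and 2.75, 2.89 and 2.93 in FGL1-OE, so the pair kept its ratio within the range of the controls. SLC38A1, a further sodium-coupled importer of neutral amino acids, measured 18.7, 48.1 and 26.8 FPKM in NC and 25.9, 35.1 and 32.8 FPKM in FGL1-OE. SLC7A1, the main importer of arginine and lysine, was steady, with 26.2, 30.3 and 28.1 FPKM in NC and 30.1, 30.8 and 29.3 FPKM in FGL1-OE (log2 difference 0.09, SE 0.14). SLC6A6, the taurine transporter, had the most negative difference of all members and was named after its values were seen. It measured 6.51, 16.2 and 16.9 FPKM in NC and 3.68, 17.2 and 4.29 FPKM in FGL1-OE (log2 difference -0.79, SE 0.56, unadjusted p = 0.197, limma). FGL1-OE 2 was the highest of the 6 libraries for SLC6A6 and the other two FGL1-OE libraries the lowest, so replicates disagreed more than groups. In family 1 all 4 members and in family 43 all 3 members had a log2 difference below 0, as did 5562 of the 12017 genes tested. The 2 members of family 36 and 5 of the 7 members of family 38 were above 0. In families 1 and 43 only SLC1A1 was free of overlap, and it was listed through the NC group alone.

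Sugar carriers, families 2, 5, 45 and 50, had 12 members, 6 higher and 6 lower, with a median of -0.03. SLC2A1, the main glucose importer, measured 60.0, 42.3 and 49.4 FPKM in NC and 51.1, 41.2 and 46.6 FPKM in FGL1-OE (log2 difference -0.12, SE 0.18). SLC2A3, a glucose importer of high affinity, measured 2.95, 7.62 and 5.28 FPKM in NC and 6.21, 5.98 and 3.34 FPKM in FGL1-OE (log2 difference 0.011, SE 0.32). The FGL1-OE values of both lay inside or at the edge of the NC range. Carboxylate and bile acid carriers, families 10, 13 and 16, had 11 members, 5 higher and 6 lower, none without overlap. SLC16A1, which moves lactate and pyruvate, measured 36.2, 65.7 and 51.1 FPKM in NC and 50.1, 59.2 and 55.0 FPKM in FGL1-OE, while SLC16A3, which exports lactate from glycolytic cells, measured 8.83, 4.75 and 6.73 FPKM in NC and 7.03, 6.05 and 6.65 FPKM in FGL1-OE. Their ratio was 4.1, 13.8 and 7.59 in NC and 7.13, 9.78 and 8.27 in FGL1-OE, a wider range within NC than across the groups. Transcript GC content was 43.5% for SLC16A1 and 62.7% for SLC16A3.

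Metal and heme carriers had 27 members in families 11, 30, 31, 39, 40, 41 and 48, of which 15 were higher and 12 lower in mean, with a median of 0.015. SLC30A2, SLC39A11 and SLC41A1 were lower and SLC31A2 higher without overlap. The SLC39 family, which mostly brings zinc into the cytosol, summed to 345, 267 and 302 FPKM in NC and 311, 293 and 308 FPKM in FGL1-OE over 11 members. The SLC30 family, which mostly removes zinc from the cytosol, summed to 30.4, 70.1 and 40.7 FPKM in NC and 45.4, 51.1 and 50.4 FPKM in FGL1-OE over 8 members. The ratio of the SLC39 sum to the SLC30 sum was 11.4, 3.81 and 7.42 in NC and 6.86, 5.74 and 6.12 in FGL1-OE. NC 1 and NC 2 were therefore the extremes in all 3 measures. The median GC content was 39.5% over the SLC30 members and 49.9% over the SLC39 members. The most abundant SLC39 members, SLC39A1 and SLC39A7, had 57.2% and 55.1%. SLC30A1, the zinc exporter of the plasma membrane, followed its family with 10.9, 24.5 and 13.2 FPKM in NC and 15.1, 16.9 and 14.9 FPKM in FGL1-OE. The iron carriers were both near or inside the NC range: SLC11A2, which imports ferrous iron, measured 3.54, 5.75 and 4.33 FPKM in NC and 4.46, 4.53 and 4.39 FPKM in FGL1-OE, and SLC40A1, which exports iron, measured 1.68, 2.82 and 1.6 FPKM in NC and 1.44, 1.62 and 1.61 FPKM in FGL1-OE. The copper importer SLC31A1 measured 13.4, 16.9 and 14.8 FPKM in NC and 12.1, 13.7 and 14.4 FPKM in FGL1-OE (log2 difference -0.15, SE 0.16).

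**Figure D5:**
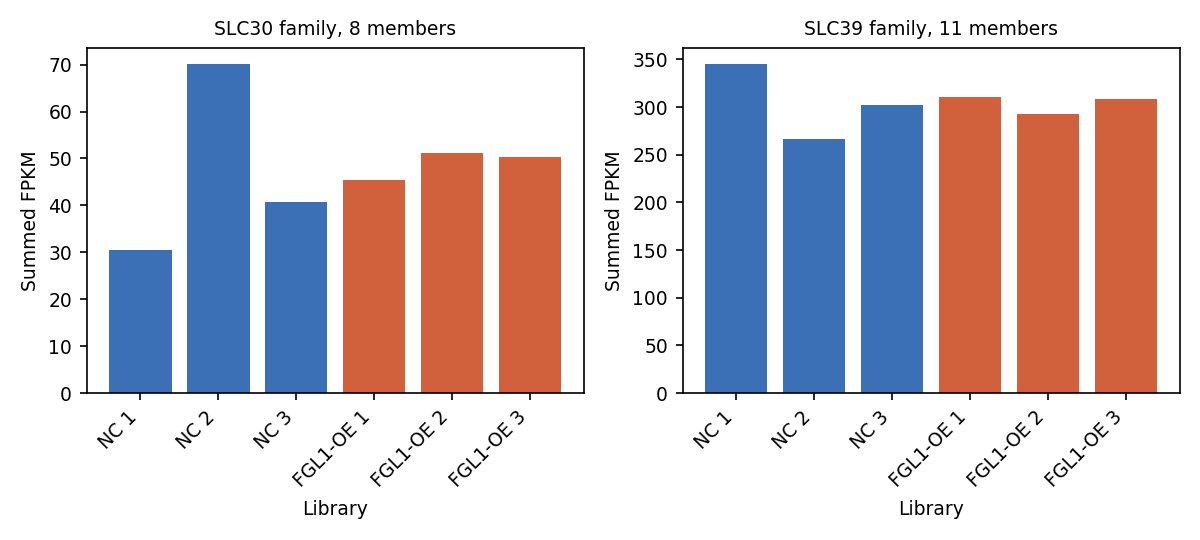
Summed FPKM of the 8 SLC30 members (left) and the 11 SLC39 members (right) in each library (x axis), with 1 bar per library, NC in blue and FGL1-OE in orange. NC 1 and NC 2 hold the lowest and highest SLC30 sums (30.4 and 70.1 FPKM) and the reverse for SLC39 (345 and 267 FPKM).

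Carriers of ions, pH and cell volume, families 4, 8, 9, 12, 24 and 26, had 19 members, 9 higher and 10 lower, none without overlap. SLC12A2, which imports sodium, potassium and chloride, measured 1.42, 2.17 and 1.48 FPKM in NC and 1.3, 1.91 and 1.83 FPKM in FGL1-OE. SLC4A7, which imports bicarbonate with sodium, measured 5.52, 11.2 and 7.48 FPKM in NC and 7.63, 9.23 and 8.65 FPKM in FGL1-OE. Both overlapped between the groups, with log2 differences of -0.0031 (SE 0.18) and 0.11 (SE 0.24).

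Carriers of the secretory pathway, families 33, 35 and 37, had 10 members, 6 higher and 4 lower. SLC35A4, the most abundant, measured 11, 11.1 and 10.6 FPKM in NC and 13, 11.1 and 11.2 FPKM in FGL1-OE. SLC35A2, which carries UDP-galactose into the Golgi, measured 3.55, 4.86 and 4.52 FPKM in NC and 3.06, 5.0 and 4.86 FPKM in FGL1-OE (log2 difference -0.015, SE 0.2). Phosphate and vesicular carriers were led by SLC20A1, a sodium-coupled phosphate importer, at 26.6, 29 and 26.3 FPKM in NC and 29.7, 27.1 and 27.6 FPKM in FGL1-OE. Organic ion carriers (family 22) had 6 members and were led by SLC22A31, at 6.27, 1.49 and 2.88 FPKM in NC and 2.43, 2.39 and 2.89 FPKM in FGL1-OE. The FGL1-OE values of SLC22A31 were alike while its NC values differed several-fold.

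Carriers of vitamins, nucleosides, choline and fatty acids had 17 members in families 19, 23, 27, 29, 44, 46 and 52, 7 higher and 10 lower. SLC44A2, a choline transporter-like protein, measured 20.8, 24.8 and 32.6 FPKM in NC and 34.7, 27.8 and 27.4 FPKM in FGL1-OE, and SLC44A1, of the same family, 7.08, 13.3 and 7.31 FPKM and 6.95, 8.83 and 8.06 FPKM. SLC19A1, the reduced folate carrier, measured 2.18, 1.0 and 1.51 FPKM in NC and 2.22, 1.86 and 1.95 FPKM in FGL1-OE (log2 difference 0.26, SE 0.2). SLC23A2, an ascorbate transporter named after its values were seen, had the most positive difference of all members. It measured 1.49, 6.18 and 4.7 FPKM in NC and 4.89, 6.05 and 5.22 FPKM in FGL1-OE (log2 difference 0.45, SE 0.37, unadjusted p = 0.258, limma). Only NC 1 was low for SLC23A2, and the NC 2 value was above every FGL1-OE value.

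The transcript table listed 362 transcripts of 135 members, of which 320 were tested. None passed an adjusted p of 0.05 (limma, Benjamini-Hochberg over 30330 transcripts; 0.0165% of all transcripts passed). At an unadjusted p under 0.05, 3 transcripts (0.938%) were higher (background 2.05%) and 4 (1.25%) lower (background 1.48%). Without overlap, 7 (2.19%) were higher (background 4.65%) and 18 (5.62%) lower (background 3.57%). The median SE was 0.38, against 0.2 for genes. Transcripts of a gene share sequence, and the gene FPKM was not the sum of its transcripts.

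ENST00000555911 of SLC7A7 measured 15.7, 6.5 and 8.91 FPKM in NC and 3.57, 3.95 and 3.9 FPKM in FGL1-OE (log2 difference -1.16, SE 0.34, unadjusted p = 0.0134, adjusted p = 1.0, limma). It was 1 of 4 listed transcripts of that gene and the only one without overlap. It covers only part of the gene's span (chr14:23282264-23284732 on GRCh37). ENST00000397532 of SLC7A7, named after its values were seen, went the other way with overlap. It measured 10.5, 6.69 and 0.302 FPKM in NC and 7.32, 1.4 and 8.23 FPKM in FGL1-OE (log2 difference 0.23, SE 0.94). ENST00000397528 (-1.24, SE 1.01) and ENST00000556350 (-0.11, SE 0.42) had differences below 0 with overlap. ENST00000255559 of SLC39A11 measured 11.7, 9.55 and 6.31 FPKM in NC and 5.25, 5.16 and 2.6 FPKM in FGL1-OE, in the direction of its gene. Another transcript of SLC39A11, ENST00000542342, named after its values were seen, went the other way without overlap, at 3.1, 4.68 and 4.13 FPKM in NC and 5.03, 6.96 and 8.77 FPKM in FGL1-OE (log2 difference 0.66, SE 0.28, unadjusted p = 0.0583, limma). ENST00000267842 of SLC27A2, a fatty acyl-CoA synthetase of the fatty acid transport family, measured 2.5, 3.35 and 4.05 FPKM in NC and 1.5, 1.7 and 1.46 FPKM in FGL1-OE. The other listed SLC27A2 transcript, ENST00000380902, named after its values were seen, went the other way with overlap. It measured 0, 1.69 and 0 FPKM in NC and 1.2, 1.88 and 2.33 FPKM in FGL1-OE (log2 difference 0.99, SE 0.45). At gene level SLC27A2 overlapped between the groups (log2 difference -0.17, SE 0.23). ENST00000555911, ENST00000255559 and ENST00000267842 were lower in each FGL1-OE library than in each NC library. The fourth transcript with an unadjusted p under 0.05, ENST00000357055 of SLC30A6, was listed at 0 in NC 1 and in every FGL1-OE library and so overlapped.

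Among the higher transcripts, ENST00000532887 of SLC52A2, a riboflavin importer, measured 5.12, 12.2 and 7.38 FPKM in NC and 19.1, 14.3 and 17.2 FPKM in FGL1-OE (log2 difference 1.02, SE 0.34, unadjusted p = 0.0234, adjusted p = 1.0, limma). Its share of the gene's listed transcripts was 16.2%, 91.6% and 30.5% in NC and 93.8%, 94.1% and 91.8% in FGL1-OE, so NC 2 had the share of the FGL1-OE libraries. A further transcript of SLC52A2, ENST00000527078, measured 25.1, 0.0877 and 15.6 FPKM in NC and 0.566, 0.427 and 0.481 FPKM in FGL1-OE. It was high in NC 1 and NC 3 alone, and without NC 2 its adjusted p was 0.0487 (log2 difference -3.8, SE 0.27, limma). ENST00000551374 of SLC38A2 was split in the same way. It measured 0.432, 68.5 and 0.519 FPKM in NC and 29.9, 36.1 and 37.4 FPKM in FGL1-OE, with an unadjusted p of 0.115 over all libraries and an adjusted p of 0.0211 without NC 2 (log2 difference 4.58, SE 0.21, limma). These were the 2 member transcripts that passed adjustment without NC 2 and were named after their values were seen. In both transcripts NC 2 lay beyond the FGL1-OE libraries, away from NC 1 and NC 3. Leaving NC 2 out therefore removed the control that went against the difference. The share of all transcripts that passed without NC 2 is not given here. ENST00000621204 of SLC30A5, a zinc carrier of the secretory pathway, measured 2.66, 0.788 and 0 FPKM in NC and 3.59, 5.08 and 5.16 FPKM in FGL1-OE, and ENST00000505666 of SLC24A1, a potassium-dependent sodium/calcium exchanger, 0.16, 0 and 0.384 FPKM and 1.21, 1.08 and 1.82 FPKM. Both were higher in every FGL1-OE library than in every NC library, and a listed 0 need not mean that a transcript was absent. ENST00000505666 averaged 0.181 FPKM in NC and 1.37 FPKM in FGL1-OE. It reached 0.5 FPKM in FGL1-OE alone, so its direction was partly set by the listing. ENST00000396591 of SLC30A5, named after its values were seen, went the other way with overlap. It measured 1.26, 7.73 and 6.34 FPKM in NC and 2.9, 2.5 and 2.36 FPKM in FGL1-OE (log2 difference -0.55, SE 0.53). At gene level SLC30A5 and SLC24A1 overlapped between the groups.

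Genes that work with these carriers were read from a list of 29 names plus the other carrier families SLCO, MFSD and FLVCR. Of these 51 were listed and tested, and none passed an adjusted p of 0.05 (limma; 0 higher and 1 lower at an unadjusted p under 0.05, against 1.21% and 0.807% of all genes). The one lower gene was TXNIP, which restrains glucose uptake, with a log2 difference of -0.54 (unadjusted p = 0.0443, limma) and overlapping groups. SLCO2A1 and STK39 were higher without overlap, and ARRDC4, MFSD13A and MFSD4B were lower, against 4.09% and 3.06% of all genes. The median difference of the 51 genes was 0.02. MYC, a transcription factor that acts on many carrier genes, stood at 21.5 FPKM in FGL1-OE 3 and at 2.15 to 2.33 FPKM in the other libraries.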

How the data were processed

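The authors deposited FPKM values per library for protein-coding genes and transcripts. The submitters' processing notes name StringTie and GRCh37; the aligner, the annotation release and the software versions are not given in the sources used here. Poly(A) RNA was selected with oligo(dT) beads before library preparation. The tables also hold the authors' group means of log2(FPKM + 1), log2 fold changes, p-values and q-values, which were not used. The genotype label of each sample set its group. The groups were compared by limma 3.58.1 (lmFit, eBayes, R 4.3.3, no covariates) on log2(FPKM + 1), a scale that understates changes of low genes, for features averaging 0.5 FPKM or higher across all 6 libraries. Benjamini-Hochberg adjustment ran over every tested feature of a table, with a threshold of 0.05, and single values had an exact two-sided permutation test. The code was tested on simulated data. The files hold no counts, so depth is unknown and no counting intervals are given.

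Named members were up to 8 differences in each direction among members whose groups do not overlap (with an unadjusted p under 0.05 where 8 pass), the 10 highest levels, the highest of each class and a set of well-known carriers; named transcripts were up to 5 in each direction without overlap and with an unadjusted p under 0.05. A member that these rules pick is not reported here. The members and all lists were chosen with earlier results of these data known. GC content came from the longest protein-coding GENCODE release 29 transcript of each gene, matched by gene for all 138 members. Figures were drawn with matplotlib 3.10.9 in Python 3.11.15.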

Additional observations from a re-analysis of the deposited data

How the results depend on the processing

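No member passed an adjusted p of 0.05 under any alternative run, while the number of all genes passing went from 1 to 2 with an ordinary linear model and to between 1 and 7 with 1 library left out. The FGL1 difference lay between 5.16 and 5.29 with 1 library left out. The 3 members lower at an unadjusted p under 0.05 became 7 with a pseudocount of 0.1, 1 with quantile normalization and 9 with the ordinary model. With 1 library left out the lower count ran from 1 (without NC 3 or without FGL1-OE 3) to 15 (without NC 2) and the higher count from 0 to 14 (without NC 2). Members without overlap ran from 2 to 28 higher, with 9 without NC 1, 5 without NC 3 and 8 without FGL1-OE 2, and from 14 to 30 lower, with 19 without NC 1; with a mean of at least 1 FPKM the higher count was 1 and the lower count 8. Fewer libraries separate more easily by construction. Shares of all genes without NC 2 are given above. For the other alternative runs, and for the transcripts below, no such share is set beside the counts. They are therefore no result about the members. The transcripts lower at an unadjusted p under 0.05 became 11 with the ordinary model. With 1 library left out, transcripts past the adjusted threshold ran from 0 to 2, at an unadjusted p under 0.05 from 2 to 10 higher and 2 to 19 lower, and without overlap from 15 to 38 higher and 27 to 57 lower, the largest numbers without NC 2.

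The median of the members ran from -0.057 to 0.013 with 1 library left out. The class medians ran from -0.18 to 0.026 for phosphate and vesicular carriers, -0.12 to 0.0048 for vitamins, nucleosides, choline and fatty acids, -0.1 to -0.021 for sugars, -0.084 to 0.052 for ions, -0.083 to 0.047 for carboxylates and bile acids, -0.074 to -0.0087 for amino acids and peptides, -0.058 to 0.042 for metals, -0.028 to 0.06 for organic ions and 0.036 to 0.13 for the secretory pathway.

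Of 43 single features, 25 never changed sign and 18 did. The sign changed for SLC1A5 (0.13), SLC2A3 (-0.1), SLC16A3 (0.021), SLC20A1 (-0.05), SLC35A2 (0.045) and SLC39A1 (-0.023) with sums of transcripts, for SLC2A3 (-0.021) and SLC12A2 (0.0018) with quantile normalization, for SLC11A2 (0.0034) and SLC16A3 (0.00048) with a pseudocount of 0.1, and for SLC39A7 (-0.00096) with a common sum. With 1 library left out the differences ran from -0.23 to 0.013 for SLC2A1, -0.29 to 0.27 for SLC2A3, -0.77 to 0.018 for SLC4A2, -0.1 to 0.35 for SLC4A7, -0.14 to 0.15 for SLC11A2, -0.075 to 0.12 for SLC12A2, -0.083 to 0.34 for SLC16A1, -0.2 to 0.18 for SLC16A3, -0.58 to 0.2 for SLC22A31, -0.19 to 0.36 for SLC30A1, -0.12 to 0.17 for SLC35A2, -0.21 to 0.45 for SLC38A1, -0.19 to 0.55 for SLC38A2, -0.014 to 0.11 for SLC39A1, -0.28 to 0.22 for SLC39A7 and -0.29 to 0.12 for SLC44A1. The cause of these changes was not tested.

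Libraries share replicate numbers, but nothing in the labels says that the numbers pair them. Deviations of same-numbered libraries from their group means correlated at 0.35, 0.28 and -0.061 over the genes tested, and NC 3 correlated best with FGL1-OE 1 (0.11). With a replicate block, 2 members were lower at an unadjusted p under 0.05, 0 were higher and 0 passed adjustment, again without the share over all genes. A median SE of 0.2 and unknown depth limit what 3 libraries a group can show.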
